A study of Homo sapiens with 8 samples.

Results

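Genes of fatty acid oxidation and acyl-CoA handling were examined in RNA-seq of control and sodium benzoate (SB)-treated cells. The genes are a list of 42 enzymes and carrier proteins, chosen by name with earlier results of these data known. Of these, 40 have a row among the 14526 genes of the deposited table. CPT1B, the muscle form of the carnitine acyltransferase, and DECR1, a mitochondrial dienoyl-CoA reductase, have no row and were not analysed here. The samples are labelled HepG2, a cell line from a human liver carcinoma. The control group held 4 biological replicates, for which the labels name no vehicle, and the SB-treated group held 4 biological replicates kept with 10 mM SB for 24 h before harvest. Both groups grew in DMEM with serum, and the labels name no genetic change in either. The comparison asks how transcript levels differ after SB, a food preservative that cells convert to benzoyl-CoA.

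Fatty acids are burned after they are joined to coenzyme A. Acyl-CoA synthetases make the activated form, the carnitine shuttle carries long chains into mitochondria, and each turn of beta-oxidation then runs through an acyl-CoA dehydrogenase, a hydratase, a hydroxyacyl-CoA dehydrogenase and a thiolase to release acetyl-CoA. Electrons from the dehydrogenases pass through the electron transfer flavoprotein to the respiratory chain. Peroxisomes shorten very long and branched chains, thioesterases free coenzyme A again, and acyl-CoA binding proteins hold the activated chains in the cytosol. Hepatocytes are known for a high capacity for this pathway.

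Levels are given as RPKM, reads scaled to gene length and library size, so that genes of different length can be compared. Differences are log2 fold changes, SB-treated minus control, on the log2(RPKM + 1) scale, which understates the change of low genes, and adjusted p-values are from limma, adjusted across the whole table by the Benjamini-Hochberg procedure. A gene was called higher or lower at an adjusted p below 0.05. Reads per library recovered from the table ranged from 36990036 to 44878277. The library control replicate 1 stood apart: the chi-square per degree of freedom between its reads and those of the other controls was 33.4 to 38.5, against 1.52 to 3.80 for other pairs of libraries within a group. Results are therefore also given without it. Of 20 genes that mark hepatocytes, 4 have a row, with control means between 0.192 RPKM for TF, the transferrin gene, and 6.57 RPKM for CPS1, a urea cycle enzyme. The other 16, among them ALB, APOA1, AFP, TTR and HNF4A, have no row, so for most of the defining genes of hepatocytes the label could not be checked in this table. The authors kept only genes above a minimum of expression, and why a given gene has no row was not tested. CPS1 was higher with SB, at 11.0 RPKM, as was TF, while ASGR1 was not called, and the part of these markers in the results below was not tested. In bulk RNA, fewer cells of a type and less RNA per cell cannot be told apart.

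Most members moved, and most of those moved down. Of the 40 members, 23 were lower after SB (57.5%, where 32.6% of all genes were lower), 6 were higher (15%, where 33% of all genes were higher) and 11 were not called. The median log2 fold change of the members was -0.20, beside 0.0045 for all genes, with a range from -0.58 to 0.48. The changes were moderate: 5 members passed a size of 0.5 on the log2 scale, all of them lower (12.5% of members, where 10.6% of all genes passed in either direction). In 22 members every SB-treated library lay below every control library (55%, where the share of all genes was 30.5%). In 5 members every SB-treated library lay above every control (12.5%, where the share of all genes was 31%). Without control replicate 1, 26 members were lower and 8 were higher. The split depended on library scaling: 20.7% of the called members and 50.2% of all called genes were higher, and without TMM factors these shares were 32% and 65.1%.

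**Figure D1:**
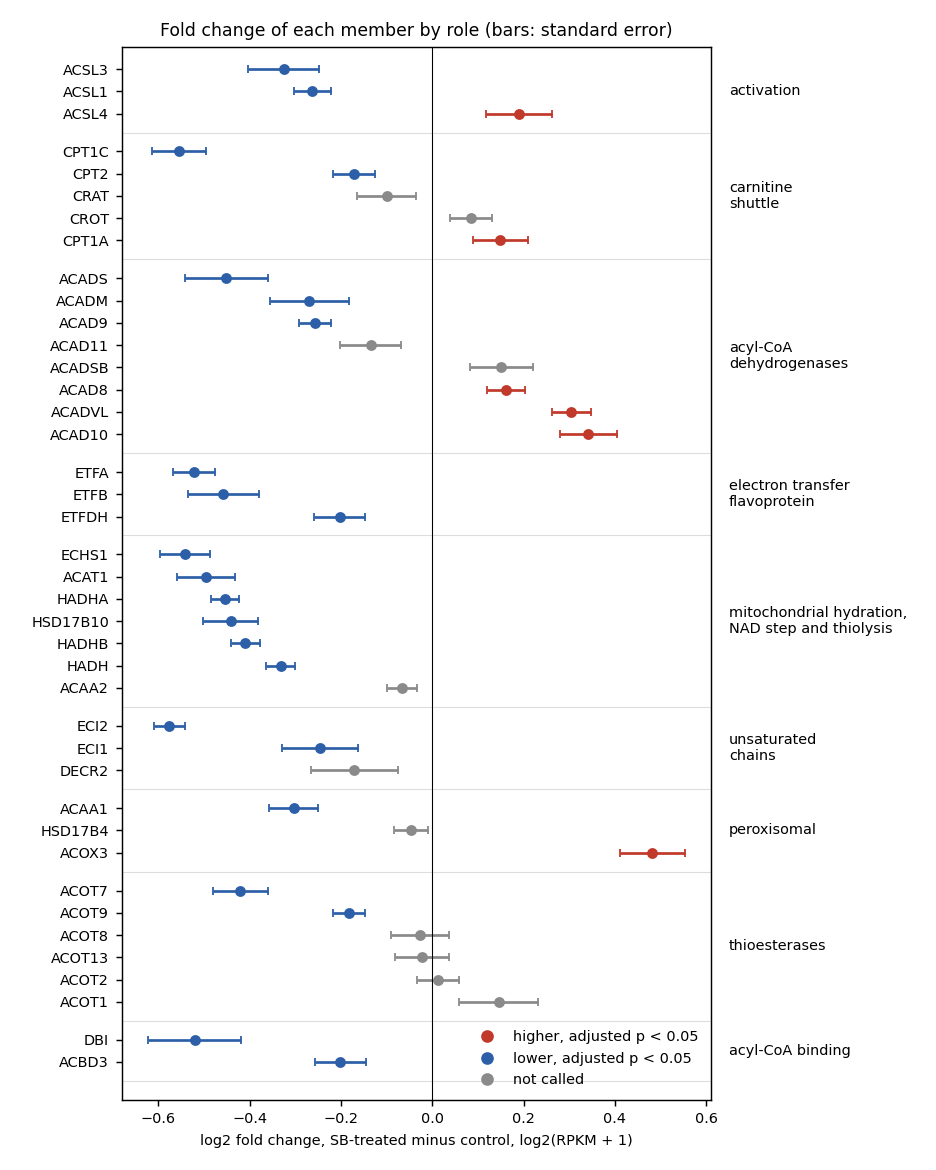
Log2 fold change (SB-treated minus control, on log2(RPKM + 1)) of the 40 members, grouped by role; points are limma estimates, bars are standard errors and colour gives the call at an adjusted p below 0.05. The electron transfer flavoprotein genes and 6 of the 7 mitochondrial hydration, dehydrogenation and thiolysis genes lie to the left, and the 8 acyl-CoA dehydrogenases lie on both sides of 0.

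The 40 members were well expressed. Their median control level was 25.9 RPKM, against 8.30 RPKM over all genes, and 32 of them lay above that all-gene median. ETFA was the most abundant member at 186 RPKM in controls, followed by ECHS1 at 136 RPKM and HADHA at 110 RPKM. ACOT1, CPT1C and ACAD11 were the least abundant, at 0.904, 1.96 and 2.03 RPKM.

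Most genes of the later mitochondrial steps of beta-oxidation fell. Among the 7 genes for hydratases, hydroxyacyl-CoA dehydrogenases and thiolases, 6 were lower and none was higher, where 32.6% of all genes were lower and 33% higher, and ACAA2 was not called. Their median log2 fold change was -0.44, against 0.0045 for all genes. ECHS1 encodes the short-chain enoyl-CoA hydratase (chr10:133362485-133373354, hg38, minus strand). Its levels were 121, 139, 145 and 139 RPKM in control replicates 1 to 4 and 92.7, 96.6, 93.0 and 89.2 RPKM in SB-treated replicates 1 to 4. All 4 treated libraries lay below all controls, and the level fell by 31.7% (log2 fold change -0.54, SE 0.055, limma adjusted p = 2.29e-05). ACAT1, the mitochondrial acetoacetyl-CoA thiolase (chr11:108116695-108147603, plus strand), had 77.6, 63.1, 65.6 and 64.3 RPKM in controls and 47.8, 45.4, 48.2 and 48.7 RPKM after SB. Control replicate 1 was the highest control, the groups did not overlap, and the log2 fold change was -0.50 (SE 0.063, limma adjusted p = 9.51e-05), or -0.43 without that library.

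The trifunctional protein of the inner mitochondrial membrane, which performs the hydration, dehydrogenation and thiolysis of long chains, has an alpha subunit encoded by HADHA and a beta subunit encoded by HADHB. These genes are transcribed away from each other on chromosome 2, from RefSeq starts 307 bases apart, and their GENCODE spans (chr2:26190635-26244672 on the minus strand and chr2:26243170-26290465 on the plus strand) overlap at their first ends. The sequence before each start is shown because these subunits moved by nearly equal amounts: the windows of 250 bases before the starts (RefSeq, GRCh38.p14) share 194 bases, printed in capitals, read from opposite strands.
HADHA (chr2:26244633-26244882, minus strand): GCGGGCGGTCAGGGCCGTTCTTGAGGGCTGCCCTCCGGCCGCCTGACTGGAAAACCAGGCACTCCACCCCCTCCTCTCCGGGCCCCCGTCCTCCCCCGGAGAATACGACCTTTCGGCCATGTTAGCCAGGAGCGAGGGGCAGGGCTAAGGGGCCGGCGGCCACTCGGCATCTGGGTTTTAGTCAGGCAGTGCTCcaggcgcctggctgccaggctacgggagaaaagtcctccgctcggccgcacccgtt
HADHB (chr2:26244689-26244938, plus strand): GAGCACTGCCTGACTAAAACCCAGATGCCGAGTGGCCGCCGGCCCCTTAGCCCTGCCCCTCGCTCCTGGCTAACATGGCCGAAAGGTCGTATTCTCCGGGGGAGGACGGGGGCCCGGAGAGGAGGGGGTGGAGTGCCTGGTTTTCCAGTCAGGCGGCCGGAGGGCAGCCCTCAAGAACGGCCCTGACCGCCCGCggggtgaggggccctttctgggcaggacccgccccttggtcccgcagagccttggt

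HADHA had 110, 109, 113 and 109 RPKM in the controls (110 ± 2.03, SD, n = 4) and 81.2, 78.9, 79.7 and 80.9 RPKM after SB (80.2 ± 1.08, SD, n = 4). HADHB had 55.1, 54.1, 54.5 and 55.1 RPKM in the controls and 41.5, 40.1, 40.6 and 41.5 RPKM after SB. The groups did not overlap for either gene, and the replicates were close together, control replicate 1 included. The log2 fold changes were -0.45 for HADHA (SE 0.031, limma adjusted p = 2.40e-06) and -0.41 for HADHB (SE 0.031, limma adjusted p = 3.72e-06). The ratio of HADHA to HADHB within a library was 1.97 to 2.08 in controls and 1.95 to 1.97 after SB, so the subunits kept almost the same proportion.

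HSD17B10, a hydroxyacyl-CoA dehydrogenase that also acts on isoleucine and steroids, fell from 90.3 ± 8.21 to 66.0 ± 0.463 RPKM (SD, n = 4; log2 fold change -0.44, or -0.28 with a correction for GC content and length). HADH, the medium- and short-chain hydroxyacyl-CoA dehydrogenase, fell from 64.0 ± 1.06 to 50.6 ± 0.888 RPKM (SD, n = 4; log2 fold change -0.33). ACAA2, a mitochondrial 3-ketoacyl-CoA thiolase, was the exception in this set. Its groups overlapped at 32.6 to 34.5 RPKM in controls and 31.6 to 32.7 RPKM after SB (log2 fold change -0.07, limma adjusted p = 0.105), and its sign turned to 0.04 without TMM factors and 0.12 with that correction. For ACAA2, 23.6% of the 50-base stretches of its transcript also occur in transcripts of other annotated genes, so its count is uncertain.

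All 3 genes that pass electrons on from the acyl-CoA dehydrogenases were lower, where 32.6% of all genes were lower. ETFA and ETFB encode the subunits of the electron transfer flavoprotein, and ETFDH encodes the membrane enzyme that takes its electrons to ubiquinone. ETFA (chr15:76188555-76311730, minus strand) had 204, 181, 179 and 180 RPKM in the controls and 129, 126, 130 and 131 RPKM after SB. Control replicate 1 was the highest control, no treated library came near the controls, and the level fell by 30.6% (log2 fold change -0.52, SE 0.047, limma adjusted p = 1.01e-05). The ETFA value was -0.48 without that library and -0.28 with the GC and length correction, still called lower. ETFB had 43.7, 57.6, 57.4 and 53.0 RPKM in the controls and 38.3, 38.5, 38.0 and 37.3 RPKM after SB. Here control replicate 1 was the lowest control and nearest to the treated libraries, and the log2 fold change was -0.46 (SE 0.078, limma adjusted p = 6.16e-04), or -0.54 without it. The ETFB transcript shares 35.1% of its 50-base stretches with an overlapping protein-coding gene model on the same strand. That model has no row in the deposited table, and whether it affected the ETFB count was not tested. ETFDH fell from 15.5 ± 1.33 to 13.3 ± 0.432 RPKM (SD, n = 4; log2 fold change -0.20), and that call was lost without TMM factors (-0.10, adjusted p = 0.11). The same call was lost with the GC and length correction (log2 fold change -0.07, adjusted p = 0.0885). PPID, which overlaps ETFDH on the opposite strand, also fell, from 43.6 to 33.2 RPKM. Whether reads of PPID were counted toward ETFDH was not tested.

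**Figure D2:**
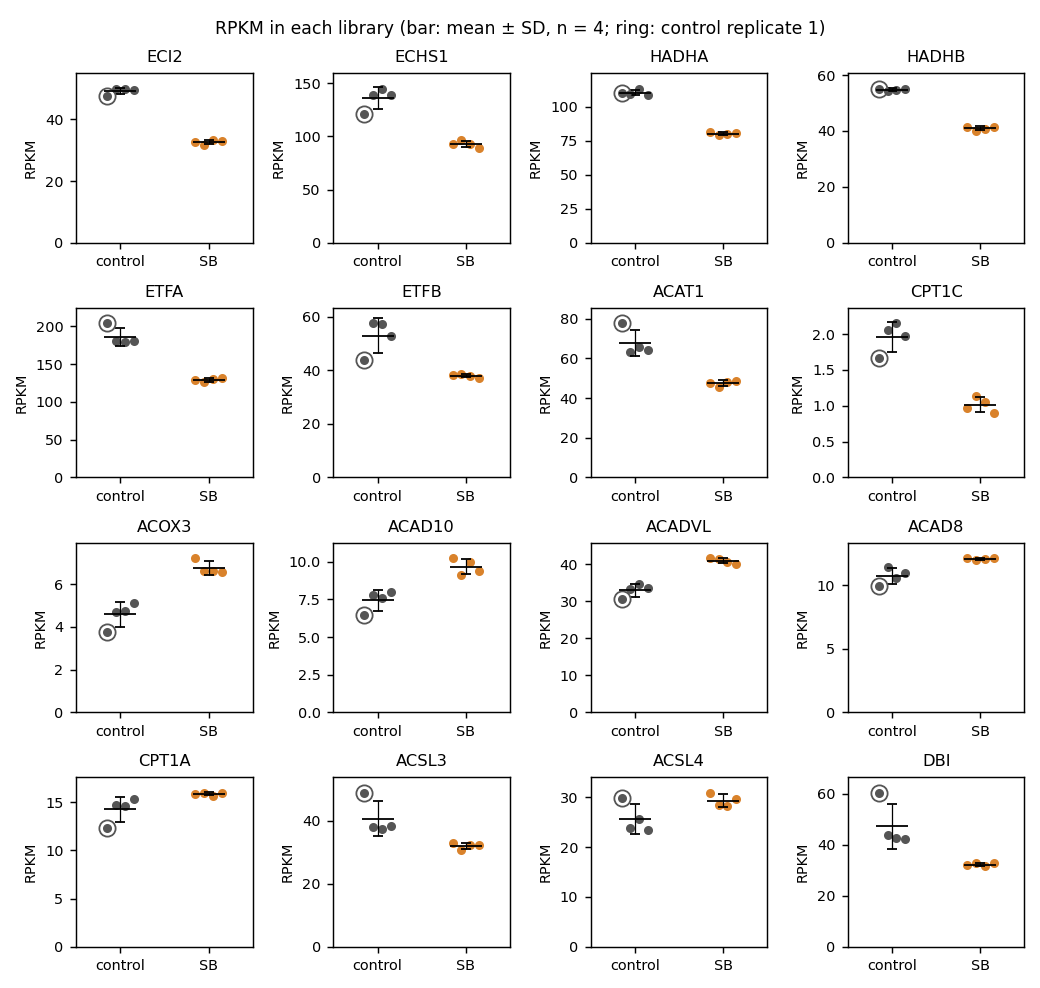
RPKM of 16 members in each of the 8 libraries, with control (grey) and SB-treated (orange) points, bars at the mean ± SD of n = 4, and control replicate 1 ringed. The treated libraries of the first 8 genes lie below all controls, and those of ACOX3, ACAD10, ACADVL, ACAD8 and CPT1A lie above them; control replicate 1 is the highest control for ETFA, ACAT1, ACSL3, ACSL4 and DBI and the lowest for ECI2, ECHS1, ETFB, CPT1C, ACOX3, ACAD10, ACADVL, ACAD8 and CPT1A.

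Double bonds in unsaturated chains have to be moved by auxiliary enzymes. ECI2, an enoyl-CoA isomerase found in mitochondria and peroxisomes (chr6:4115693-4135597, minus strand), had the lowest log2 fold change of the 40 members on the log2(RPKM + 1) scale, although CPT1C, a low gene, fell by a larger percentage. Its levels were 47.6, 49.8, 49.9 and 49.5 RPKM in the controls and 32.6, 31.8, 33.2 and 33.1 RPKM after SB. The groups were far apart relative to their spread (49.2 ± 1.09 against 32.7 ± 0.654 RPKM, SD, n = 4), with a log2 fold change of -0.58 (SE 0.033, limma adjusted p = 9.64e-07). ECI1, the other isomerase, had 66.7, 86.4, 89.6 and 84.7 RPKM in the controls and 67.0, 70.2, 70.5 and 66.0 RPKM after SB. Control replicate 1 lay within the treated range and the rest of the controls above it, so the groups overlapped (log2 fold change -0.25, limma adjusted p = 0.0251). The log2 fold change of ECI1 was -0.34 without control replicate 1, and the call was lost without control replicate 2, 3 or 4 (adjusted p = 0.0653, 0.0728 and 0.0619) and without SB-treated replicate 1 or 4 (adjusted p = 0.0587 and 0.0636). It was also lost without TMM factors (-0.14, adjusted p = 0.171) and with the GC and length correction (-0.10, adjusted p = 0.0839). DECR2, a peroxisomal dienoyl-CoA reductase, overlapped between groups (3.14 to 4.51 RPKM in controls and 2.93 to 3.80 RPKM after SB) and was not called. Without control replicate 1 DECR2 was called lower, at -0.26 (limma adjusted p = 0.00766), and 25.5% of its stretches occur in the overlapping gene NME4.

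The acyl-CoA dehydrogenases, which take the first step of each turn, were called in both directions. Of 8 genes, 3 rose, 3 fell and 2 were not called. These shares are near those of all genes, of which 33% were higher and 32.6% lower. ACADVL, the very-long-chain enzyme of the inner membrane (chr17:7217125-7225266, plus strand), had 30.5, 33.2, 34.6 and 33.6 RPKM in the controls and 41.7, 41.3, 40.7 and 40.0 RPKM after SB. Every treated library lay above every control, by 24.1% in the mean (log2 fold change 0.30, SE 0.042, limma adjusted p = 1.67e-04). DLG4, which overlaps ACADVL on the opposite strand, was also higher, from 1.52 to 2.38 RPKM, and the strand setting of the authors' counting is not given in the sources used here. ACAD10, a less studied family member (chr12:111686053-111757107, plus strand), had 6.44, 7.79, 7.58 and 7.99 RPKM in the controls and 10.3, 9.12, 9.98 and 9.41 RPKM after SB. These groups were also separate, with control replicate 1 the lowest library (log2 fold change 0.34, SE 0.063, limma adjusted p = 0.00100; 0.28 without it). ACAD8, which acts on isobutyryl-CoA in valine breakdown (chr11:134253548-134265855, plus strand), had 9.92, 11.4, 10.6 and 10.9 RPKM in the controls and 12.1, 11.9, 12.1 and 12.1 RPKM after SB. The rise of ACAD8 was small but larger than the spread (log2 fold change 0.16, SE 0.042, limma adjusted p = 0.00719; 0.26 without TMM factors).

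ACADS, the short-chain enzyme, was the dehydrogenase that fell most. It had 9.19, 12.5, 13.0 and 12.4 RPKM in the controls and 8.19, 8.82, 8.16 and 7.97 RPKM after SB. Control replicate 1 was the only control near the treated libraries, and the log2 fold change was -0.45 (SE 0.092, limma adjusted p = 0.00179), or -0.56 without it. ACADM, the medium-chain enzyme, had 47.0, 36.1, 38.1 and 34.9 RPKM in the controls and 33.6, 30.8, 30.2 and 33.5 RPKM after SB. Here control replicate 1 was the highest, the gap between the groups was narrow, and the log2 fold change was -0.27 (SE 0.086, limma adjusted p = 0.0192), or -0.18 without that library. The ACADM call was lost without SB-treated replicate 2 or 3 (adjusted p = 0.0516 and 0.0547) and without TMM factors (-0.17, adjusted p = 0.0995), its value was -0.16 with the GC and length correction, and its span overlaps RABGGTB on the same strand, which fell as well (log2 fold change -0.47). ACAD9, which also helps to assemble respiratory complex I, had 25.6, 27.7, 26.3 and 27.3 RPKM in the controls and 21.6, 22.3, 22.3 and 22.4 RPKM after SB. Its groups were separate with little spread (log2 fold change -0.26, SE 0.036, limma adjusted p = 1.79e-04; -0.16 without TMM factors).

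ACADSB, for short branched chains, and ACAD11, for long chains, were not called. ACADSB had 10.6 RPKM in control replicate 1, 8.34 to 8.61 RPKM in the other controls and 9.62 to 10.5 RPKM after SB, and without control replicate 1 it was called higher (log2 fold change 0.22, limma adjusted p = 1.94e-04). ACAD11 had 1.63 to 2.36 RPKM in controls and 1.67 to 1.86 RPKM after SB, and without control replicate 1 it was called lower (log2 fold change -0.20, limma adjusted p = 0.00127). ACAD11 shares sequence with other annotated transcripts, so its count is uncertain.

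The 3 acyl-CoA synthetases that activate long chains were also called in both directions, 1 higher and 2 lower. Of all genes, 33% were higher and 32.6% lower. ACSL3, found on the endoplasmic reticulum and lipid droplets, had 49.0, 38.2, 37.4 and 38.4 RPKM in the controls and 32.9, 30.8, 32.4 and 32.4 RPKM after SB. All treated libraries lay below the controls, of which control replicate 1 was the highest (log2 fold change -0.33, SE 0.078, limma adjusted p = 0.00469; -0.24 without it). ACSL1, the main form of liver and adipose tissue, had 11.2, 11.3, 10.4 and 11.7 RPKM in the controls and 9.12, 9.36, 8.88 and 9.11 RPKM after SB. These groups were separate too (log2 fold change -0.26, SE 0.041, limma adjusted p = 3.49e-04; -0.17 without TMM factors). ACSL4, which prefers arachidonate (chrX:109624244-109733403, minus strand), had 29.9, 23.9, 25.6 and 23.4 RPKM in the controls and 31.0, 28.4, 28.2 and 29.7 RPKM after SB. Control replicate 1 lay inside the treated range, so the groups overlapped (log2 fold change 0.19, SE 0.072, limma adjusted p = 0.0409), and the log2 fold change was 0.26 without that library and 0.29 without TMM factors. The ACSL4 call was lost in every fit that left out 1 of the other 7 libraries, with log2 fold changes of 0.148 without control replicate 4 to 0.207 without SB-treated replicate 3 and adjusted p-values of 0.0548 to 0.11.

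In the carnitine shuttle list, the measured genes of the carnitine palmitoyltransferase 1 family, CPT1A and CPT1C, were called in opposite directions. CPT1A loads chains onto carnitine at the outer membrane, and CPT1C was a low gene here. CPT1C, the neuronal form (chr19:49690898-49713731, plus strand), had 1.66, 2.06, 2.15 and 1.97 RPKM in the controls and 0.967, 1.13, 1.06 and 0.894 RPKM after SB. Every treated library was below every control, a fall by 48.3% (log2 fold change -0.56, SE 0.059, limma adjusted p = 2.87e-05), and voom on the recovered reads, with no pseudocount of 1 RPKM, gave -0.95. CPT1A, the liver form and the rate-limiting step (chr11:68754620-68844410, minus strand), had 12.3, 14.7, 14.6 and 15.3 RPKM in the controls and 15.9, 15.9, 15.7 and 16.0 RPKM after SB. The groups did not overlap, but the rise was near the spread of the controls (14.2 ± 1.33 against 15.9 ± 0.144 RPKM, SD, n = 4; log2 fold change 0.15, SE 0.059, limma adjusted p = 0.0482). The CPT1A call held without control replicate 1 (log2 fold change 0.09, adjusted p = 0.014) and without control replicate 4. It was lost without control replicate 2 or 3 (adjusted p = 0.0588 and 0.0621) and without SB-treated replicate 1, 2, 3 or 4 (adjusted p = 0.0891, 0.0932, 0.08 and 0.0971). The CPT1A value was 0.25 without TMM factors (adjusted p = 0.00561) and 0.04 with the GC and length correction (adjusted p = 0.447).

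CPT2, which returns the chains to coenzyme A inside mitochondria, fell from 14.7 ± 0.832 to 13.0 ± 0.448 RPKM (SD, n = 4; log2 fold change -0.17, limma adjusted p = 0.00817), a call lost without TMM factors (-0.07, adjusted p = 0.195). CRAT and CROT, the acetyl- and octanoyltransferases, were not called. CRAT had 10.5 to 13.1 RPKM in controls and 10.9 to 11.8 RPKM after SB, and CROT had 2.70 to 3.18 RPKM and 2.96 to 3.24 RPKM. Without control replicate 1, CRAT was called lower (log2 fold change -0.17, limma adjusted p = 0.0018) and CROT higher (0.12, limma adjusted p = 0.00393).

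The 3 peroxisomal enzymes each gave a different call, where 33% of all genes were higher and 32.6% lower. ACOX3, an oxidase for branched chains (chr4:8366282-8440723, minus strand), had the highest log2 fold change of the members. Its levels were 3.78, 4.71, 4.73 and 5.13 RPKM in the controls and 7.24, 6.64, 6.63 and 6.59 RPKM after SB. All treated libraries were above all controls, by 47.6% in the mean (log2 fold change 0.48, SE 0.071, limma adjusted p = 2.50e-04; 0.41 without control replicate 1). ACAA1, the peroxisomal thiolase, fell from 14.4 ± 1.12 to 11.4 ± 0.358 RPKM (SD, n = 4; log2 fold change -0.30). HSD17B4, the multifunctional hydratase and dehydrogenase between them, had 55.6 to 61.2 RPKM in controls and 55.0 to 56.2 RPKM after SB and was not called (log2 fold change -0.05). The sign of the HSD17B4 value turned to 0.06 without TMM factors and to 0.03 with the GC and length correction.

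Among the 6 thioesterases, which cut acyl-CoA into fatty acid and coenzyme A, 2 were lower and 4 were not called. The share that was lower is near that of all genes, 32.6%. ACOT7, the abundant cytosolic form of the brain, fell from 36.4 ± 3.30 to 26.8 ± 0.533 RPKM (SD, n = 4; log2 fold change -0.42, limma adjusted p = 2.14e-04). ACOT9, a mitochondrial form, fell from 26.0 ± 0.800 to 22.8 ± 0.473 RPKM (SD, n = 4; log2 fold change -0.18), a call lost without TMM factors (-0.08, adjusted p = 0.0682). ACOT9 also lost the call with the GC and length correction (-0.04, adjusted p = 0.344). ACOT2, ACOT8 and ACOT13 lay within 0.03 of 0 on the log2 scale, and their signs turned under other settings. C6orf62, which overlaps ACOT13 on the opposite strand, rose from 38.2 to 46.3 RPKM, and its part in the ACOT13 count was not tested. ACOT1 rested on few reads, 41 to 88 per library (log2 fold change 0.15, limma adjusted p = 0.163). ACOT1 and ACOT2 are near-identical neighbours on chromosome 14, and they share 51.9% and 54% of their 50-base stretches, so their counts are uncertain.

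Both acyl-CoA binding proteins were lower, where 32.6% of all genes were lower. DBI, the small cytosolic carrier of acyl-CoA that is also known as a ligand of the GABA receptor (chr2:119366924-119372550, plus strand), had 60.4, 43.7, 42.4 and 42.1 RPKM in the controls and 32.1, 32.7, 31.5 and 32.6 RPKM after SB. Control replicate 1 stood far above the other controls, and all controls lay above the treated libraries (log2 fold change -0.52, SE 0.102, limma adjusted p = 0.00142). The DBI value was -0.40 without that library and -0.28 with the GC and length correction, still called lower. ACBD3, a Golgi protein with an acyl-CoA binding domain, fell from 39.2 ± 3.43 to 33.9 ± 0.677 RPKM (SD, n = 4; log2 fold change -0.20), a call lost without TMM factors (-0.10, adjusted p = 0.126).

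Members of one family or step that were called in opposite directions were also compared as ratios within each library, which no library scaling can move. The pairs were chosen after the directions were seen, so the ratios are described and not tested. The ratio of CPT1A to CPT1C, a low gene, was 6.81 to 7.78 in the controls and 14.0 to 17.9 after SB. ACADVL was below ACADM in every control, with ratios of 0.650 to 0.963, and above ACADM in every treated library, with ratios of 1.20 to 1.35. For ACADVL over ACADS, the long- against the short-chain enzyme, the means were 2.84 ± 0.327 and 4.95 ± 0.178 (SD, n = 4). ACSL4 over ACSL3 moved from a mean of 0.632 ± 0.036 to 0.913 ± 0.030 (SD, n = 4), with separate groups. The ACSL3 levels were already separate and the ACSL4 levels overlapped. Control replicate 1 was the highest control for both genes, so its height largely cancels in this ratio. ACOX3 over ACAA1 moved from 0.319 ± 0.021 to 0.593 ± 0.019 (SD, n = 4). ETFA over ETFB, as a pair with the same call, ranged from 3.12 to 4.66 in the controls and from 3.27 to 3.52 after SB, so these groups overlapped.

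**Figure D3:**
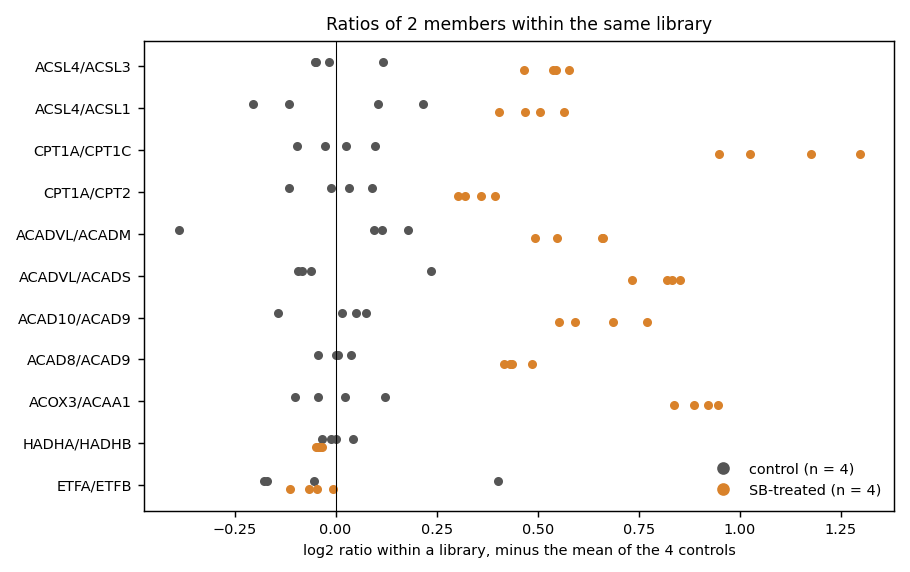
Log2 of the ratio of a pair of members within each library, minus the mean of the 4 controls, for 11 pairs; grey points are controls and orange points are SB-treated libraries (n = 4 each). The 9 pairs of members called in opposite directions show no overlap between groups, and HADHA/HADHB and ETFA/ETFB, whose members were both called lower, overlap.

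Other genes around the pathway were read from 9 lists of 160 genes, of which 134 have a row. Of these, 42 were higher and 63 were lower, with a median log2 fold change of -0.12. These counts and each count below are to be read against the shares over all genes, 33% higher and 32.6% lower. No difference between a list and all genes was tested. In breakdown of amino acids, odd chains and ketone bodies, 14 of 21 genes fell and 3 rose. Among them MCCC2, a subunit of the leucine-degrading carboxylase, went from 47.7 to 31.6 RPKM (log2 fold change -0.58), and MCEE, the methylmalonyl-CoA epimerase of the propionate route, went from 12.6 to 7.74 RPKM (-0.64). GCDH, the glutaryl-CoA dehydrogenase that also feeds the electron transfer flavoprotein, went from 12.7 to 8.41 RPKM (-0.54). In the list of flavoprotein accessory factors and complex I assembly partners of ACAD9, 7 of 9 genes were lower and none was higher. FLAD1, which makes the FAD cofactor of the dehydrogenases, went from 30.5 to 18.2 RPKM (-0.71), SLC25A32, a mitochondrial carrier of FAD and folate, from 18.1 to 12.3 RPKM (-0.52), and TMEM126B, an assembly partner of ACAD9, from 42.6 to 23.8 RPKM (-0.81).

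Among the transcriptional regulators, 11 of 20 were higher and 6 were lower, beside 33% and 32.6% of all genes. PPARA, the nuclear receptor that drives fatty acid oxidation genes in liver, had 2.02, 2.09, 1.76 and 2.07 RPKM in the controls and 4.05, 3.84, 3.85 and 3.92 RPKM after SB (log2 fold change 0.72, SE 0.043, limma adjusted p = 1.12e-06). LPIN1, a phosphatidate phosphatase that also acts as a coactivator, went from 6.50 to 11.4 RPKM (0.72). Lower were ESRRG, an estrogen-related receptor (2.10 to 1.02 RPKM, -0.62), RXRG, a partner of the PPARs (1.25 to 0.505 RPKM, -0.58), and GABPB1, a subunit of an ETS-family factor of mitochondrial genes (12.0 to 7.83 RPKM, -0.55). Of 6 genes known as PPAR targets outside the pathway, 3 were higher and 2 were lower. The higher ones included PLIN4, a lipid droplet protein, which stayed low at 0.158 and 0.669 RPKM (0.53). The lower ones were PLIN2, from 38.7 to 30.9 RPKM (-0.32), and PDK4, from 1.26 to 0.866 RPKM (-0.28). Whether these genes follow PPARA was not tested.

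Several other lists had shares near those of all genes (33% higher, 32.6% lower). Coenzyme A synthesis and turnover had 5 higher and 6 lower of 13 genes. PPCDC, the decarboxylase of coenzyme A synthesis, went from 30.6 to 17.3 RPKM (log2 fold change -0.78), and NUDT8, which degrades coenzyme A in mitochondria, from 6.37 to 3.97 RPKM (-0.56). Fatty acid synthesis had 7 higher and 8 lower of 23 genes, with FADS3, a desaturase, going from 7.80 to 13.8 RPKM (0.75) and MECR, the reductase of mitochondrial fatty acid synthesis, from 28.5 to 15.8 RPKM (-0.81). Uptake, activation and carnitine supply had 8 higher and 8 lower of 20 genes, where FABP5, a fatty acid binding protein, went from 51.2 to 33.9 RPKM (-0.58). The other peroxisomal and branched-chain genes were mostly lower, 9 of 14 with 2 higher, and the other thioesterases and acyl-CoA binding proteins had 3 higher and 3 lower of 8. No called gene of these lists passed 0.5 on the log2(RPKM + 1) scale, which understates low genes: BAAT, a bile acid conjugating enzyme named here after its values were seen, went from 0.136 to 0.427 RPKM (0.33; voom 1.65).

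**Figure D4:**
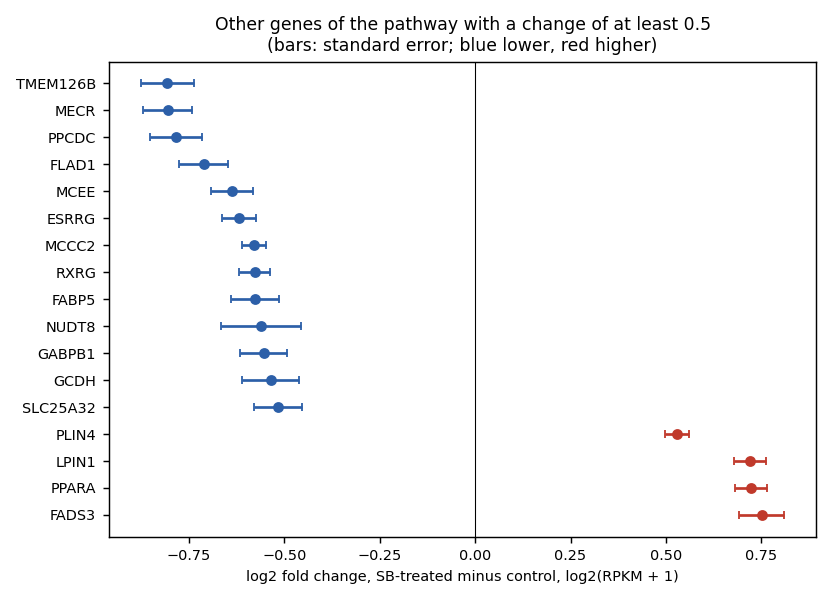
Log2 fold change (SB-treated minus control, on log2(RPKM + 1)) of the genes of the 9 surrounding lists that were called with a change of at least 0.5; points are limma estimates, bars are standard errors, blue is lower and red is higher. PLIN4, LPIN1, PPARA and FADS3 lie to the right and the other 13 genes to the left.

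Promoter sequence was searched for elements of factors known to act on mitochondrial and lipid genes. A RefSeq window of 250 bases before to 50 after the start was found for 34 members and for 10651 genes of the table, and both strands were searched. The NRF1 motif GCGCANGCG was in 4 member windows (11.8%, against 14.4% of all), those of DBI, ACAD9, ACOT13 and ACAD10. The motif CCGGAAGT of ETS factors was in 2 (5.88%, against 8.32%), those of CPT2 and ACOT8. The nuclear receptor element AGGTCA was in 3 (8.82%, against 9.39%), those of ACOT7, ACBD3 and ACAD10, and the ERR element TCAAGGTCA, which contains AGGTCA, was in none (0.188% of all). The direct repeat of AGGTCA with a 1-base spacer, the form bound by PPAR with RXR, was in 3 of the 10651 windows, and ACBD3 was the 1 member among them. These counts are small, no difference in shares was tested, and a match is a description of letters only. The stretches of 30 bases that hold the repeat of ACBD3, the pair of NRF1 matches of ACAD9, which fell, and the NRF1 match of ACAD10, which rose, are shown with the match in capitals (GRCh38.p14).
ACBD3 (chr1:226186725-226186754, minus strand): gtaagcggAGGTCAGAGGTCAgcaggaagt
ACAD9 (chr3:128879414-128879443, plus strand): tcctttggccGCGCAAGCGcagtggggccg
ACAD9 (chr3:128879564-128879593, plus strand): gcgggggaccGCGCAAGCGcagtgagtact
ACAD10 (chr12:111685990-111686019, plus strand): ctgcggtttaCGCATGCGCgcaggaccgcg

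Several members share a promoter region with a neighbour read in the opposite direction: 12 of the 40 have such a protein-coding neighbour. HADHA and HADHB, which are such neighbours, both fell. The neighbours of 3 members that rose were lower, where 32.6% of all genes were lower. ACAD8 rose while THYN1, which starts 216 bases away, fell from 33.9 to 26.0 RPKM (log2 fold change -0.37, limma adjusted p = 1.05e-05). ACAD10 rose while BRAP, 97 bases away, fell from 10.7 to 9.20 RPKM (-0.20, limma adjusted p = 0.00177). ACOX3 rose while TRMT44, 54 bases away, was called lower with overlapping groups, at 4.79 against 4.20 RPKM (-0.15, limma adjusted p = 0.0242). The neighbours of DBI, ETFDH and ACOT8 were not called. IKZF5 and TDP2, the neighbours of the uncalled members ACADSB and ACOT13, were lower, with log2 fold changes of -0.22 and -0.32.

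**Figure D5:**
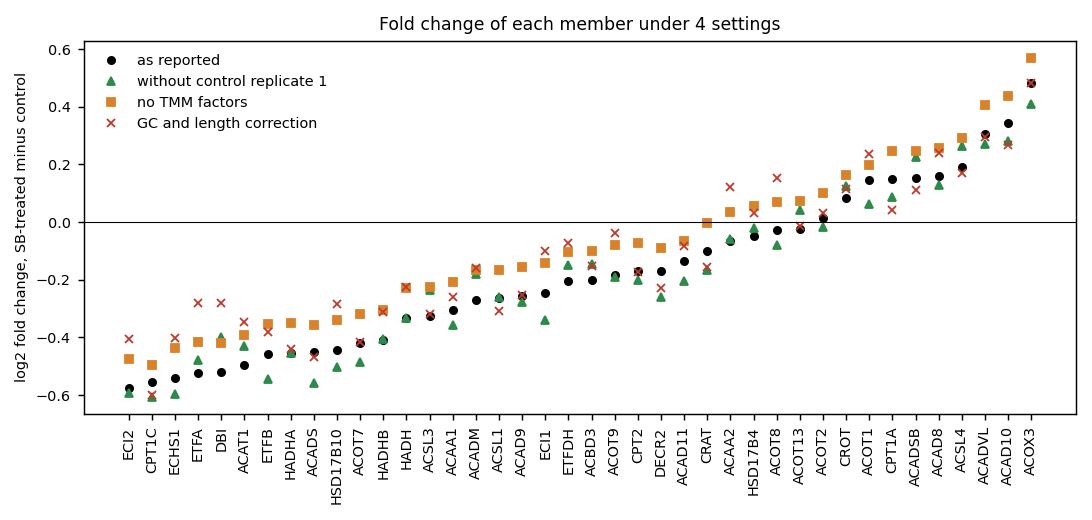
Log2 fold change of each of the 40 members as reported (black), without control replicate 1 (green), without TMM factors (orange squares) and with a correction for GC content and length (red crosses). The values from ECI2 to HADH stay below 0 and those from ACAD8 to ACOX3 stay above 0 in all 4; ACAA2, HSD17B4, ACOT8, ACOT13 and ACOT2, near 0, change sign.

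Across 18 other settings, 21 of the 29 called members kept their call in every setting, 17 of them lower and 4 higher. The 4 higher ones were ACOX3, ACAD10, ACADVL and ACAD8. The 8 that lost it in at least 1 setting were ACSL4, CPT1A, CPT2, ACADM, ETFDH, ECI1, ACOT9 and ACBD3. Of the 10 genes for the later mitochondrial steps and the flavoprotein, 9 were lower, where 32.6% of all genes were lower. All of these 9 but ETFDH kept the call throughout. With the GC and length correction the falls were smaller: 1 member, CPT1C, remained past -0.5 against 5 as reported, and the median of the members was -0.16.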

How the data were processed

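RNA was sequenced by the authors as stranded libraries with single reads, mapped to hg38 with TopHat2 2.1.0, counted per gene with featureCounts 1.5.0 and scaled with TMM in edgeR 3.16.5, as the paper's methods and the submitters' processing notes give. The authors deposited RPKM values per gene and library. The log2 fold change and log2 CPM columns and the p-value and FDR columns that the authors deposited hold their own comparison and were not used.

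Whole reads, recovered from the RPKM steps within a tolerance of 0.03, came out for 100% of genes and gave library sizes and TMM factors (0.956 to 0.968 in controls, 1.03 to 1.04 after SB). The main test was limma 3.58.1 (R 4.3.3; lmFit, eBayes) on log2(RPKM + 1), 4 against 4, adjusted over all 14526 genes. On simulated data of 14526 genes it recovered 99.0% of changes of 1 and 87.8% of changes of 0.5 on the log2 scale, with 2.09% of calls false. The simulated data held far fewer changed genes than were called here. They also had the same spread beyond counting noise for every gene and no library that stood apart as control replicate 1 did. These rates therefore need not hold for the real comparison. P-values set the difference between the group means against the spread between these replicate cultures, control replicate 1 included.

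The members and lists were chosen with earlier results of these data known. Library values were printed for the 6 highest and 6 lowest called members and for paralogs called in opposite directions, and surrounding genes were named when called with a change of at least 0.5. HADHA, HADHB, ETFB, ECI1, PLIN2, PDK4 and neighbouring genes were added after their values were seen. Alternatives were a pseudocount of 0.1, a mean of at least 1 RPKM, median-of-ratios scaling, no TMM factors, the replicate number as a block, an intensity trend, voom on the recovered reads and leaving out each library. Voom with the block and the GC and length corrections (a GC value for 91.5% of genes) were added after seeing the data. Gene positions are from GENCODE on hg38, promoter sequences from RefSeq on GRCh38.p14, and Python 3.11.15 was used for sequence searches. ChIP-seq was not analysed here, and values of a few neighbouring or marker genes are not reported here.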

Additional observations from a re-analysis of the deposited data

Results flagged for a closer look

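In each of 80 groups of 4 libraries (40 members, 2 groups), the gap of the highest or lowest library to its nearest neighbour was set against the range of the group, on log2(RPKM + 1). In 7 groups the gap passed the 95% critical value of Dixon for 4 samples, which chance does in about 1 in 20 groups. Control replicate 1 was the library that stood apart in 5 of them. It was the highest control for ETFA (0.937 of the range), ACSL3 (0.906), DBI (0.896) and ACADSB (0.869), and the lowest control for ACADS (0.872). SB-treated replicate 1 was the highest treated library for ACOX3 (0.92), at 7.24 RPKM beside 6.59 to 6.64 RPKM, and the lowest for ACAD9 (0.835), at 21.6 RPKM beside 22.3 to 22.4 RPKM. Without control replicate 1, ETFA, ACSL3, DBI and ACADS kept their calls and ACADSB was called higher. Without SB-treated replicate 1, ACOX3 and ACAD9 kept theirs.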

How the results depend on the processing

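Of the member values under 18 alternatives, 649 kept direction and side of the threshold, 36 lost the call, 21 gained it and 14 changed sign; the cause was not tested. As reported, 6 members were higher and 23 lower. Leaving out 1 library gave 4 to 8 higher and 22 to 26 lower, and the pseudocount of 0.1 gave 4 and 23. Without TMM factors there were 8 and 17, and with the GC and length correction 9 and 22, or 10 and 22 with the replicate block added. Voom gave 6 and 23. The sign turned without TMM factors for ACAA2 (0.0358), HSD17B4 (0.0561), ACOT8 (0.0708) and ACOT13 (0.0717); without control replicate 1 for ACOT2 and ACOT13, without control replicate 2 for ACOT8 and without SB-treated replicate 3 for ACOT2; and with the GC and length correction, with and without the block, for ACAA2 (0.122), HSD17B4 (0.0312) and ACOT8 (0.153). With the block in that correction ACAA2 was called higher (adjusted p = 0.0241), and ACOT8 was called higher both without it (adjusted p = 0.0326) and with it (adjusted p = 0.0267). Leaving out 1 library gave ACOT2 -0.0161 to 0.0420, ACOT8 -0.0783 to 0.0360 and ACOT13 -0.0566 to 0.0413. None of these was called as reported. The labels give replicate numbers but no shared culture or day. Deviations of same-numbered libraries correlated at 0.38, 0.327, 0.173 and -0.160, with a mean of 0.180 beside -0.054 for other pairs. The main fit did not pair the samples, because the labels name no pairing, and whether equal numbers share a batch was not tested. With the replicate block 7 members were higher and 24 lower, the additions being ACADSB (adjusted p = 0.0361) and DECR2 (adjusted p = 0.00907). Depth limits ACOT1 most, at 41 to 88 reads per library.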
